A study of Mus musculus with 6 samples.

Results

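The adipocyte genes described here are 10 genes of fat cell identity and of the lipid droplet: Adipoq, Cfd, Lep, Retn, Plin1, Plin4, Cidec, Fabp4, Lpl and Pparg. They were chosen by name, and each name matched exactly 1 row among the 21958 genes of the deposited expression table. RNA was sequenced from whole MC38 tumors, which were grown from a mouse colon cancer cell line injected under the flank skin of wild-type male C57BL/6J mice aged 6 to 8 weeks. Vehicle tumors (n = 3) received 50 µL of saline into the tumor, and Mn-N/C tumors (n = 3) received 70 mg/kg of Mn-N/C, a nanozyme with single manganese atoms on nitrogen-doped carbon, in the same volume. By the paper's general account of its tumor models, injections were repeated every 3 days from a tumor volume of 60 mm3. That account ends with tissue collection at 800 to 1000 mm3. For the sequenced tumors the paper gives no volume or day of collection. The comparison asks how the tumor transcriptome differs after Mn-N/C. The sources used here do not say from which part of a tumor a piece was cut, how much surrounding tissue it carried, or whether each library came from its own mouse, so p-values measure only the spread between these libraries, which may be technical.

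White fat cells store triglyceride in a large lipid droplet and secrete hormones. The nuclear receptor PPARγ, encoded by Pparg, and the C/EBP factors switch on most genes of this cell type, among them those for the droplet coat, for fatty acid uptake and for secreted proteins. Fabp4 and Lpl are less specific, since capillary endothelial cells and macrophages use Fabp4, and macrophages and muscle use Lpl.

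The adipocyte genes were highest in vehicle replicates 1 and 3, and vehicle replicate 2 was near or below the Mn-N/C tumors. CPM below are depth-scaled counts after TMM scaling, which evens out differences in library composition. Summed over the 10 genes, the level was 100.2, 30.3 and 69.4 CPM in vehicle replicates 1 to 3, and 33.2, 41.8 and 29.7 CPM in Mn-N/C replicates 1 to 3. Without Fabp4 and Lpl, the sum of the other 8 genes was 49.1, 7.66 and 21.7 CPM in vehicle replicates 1 to 3 and 8.40, 10.5 and 9.05 CPM in Mn-N/C replicates 1 to 3. Vehicle replicate 1 exceeded every Mn-N/C library in 10 of 10 genes and vehicle replicate 3 did so in 8, whereas vehicle replicate 2 lay below all Mn-N/C libraries in 4, within their range in 5 and above it in 1. In bulk tissue, differences in the number of fat cells, in RNA per fat cell and in the surrounding tissue that a piece carried cannot be told apart.

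**Figure D1:**
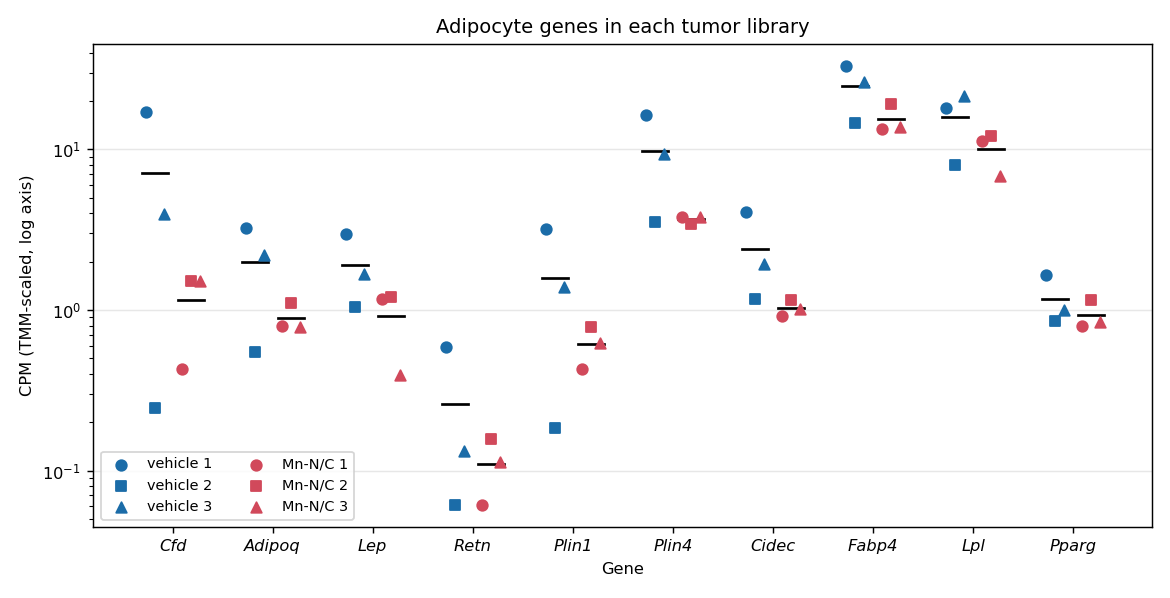
TMM-scaled CPM of each adipocyte gene (log axis) in the 3 vehicle libraries (blue) and the 3 Mn-N/C libraries (red); marker shapes give the replicate number and black bars the group means. Vehicle replicates 1 and 3 stand above the Mn-N/C libraries for most genes, while vehicle replicate 2 does not.

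As a view of the control regions of genes that varied together, promoter windows of 250 bases before to 50 bases after a start site were taken from RefSeq (GRCm38.p6), which matched 8 of the 10 genes with 11 windows. Fabp4 and Lpl are named only. The windows shown are those of 3 secreted proteins and of the droplet coat protein perilipin 1. Capitals mark a C/EBP-type motif (TTGCNNAA, either strand) or the nuclear receptor core motif (AGGTCA, either strand).
Lep (leptin), chr6:29059971-29060270, plus strand: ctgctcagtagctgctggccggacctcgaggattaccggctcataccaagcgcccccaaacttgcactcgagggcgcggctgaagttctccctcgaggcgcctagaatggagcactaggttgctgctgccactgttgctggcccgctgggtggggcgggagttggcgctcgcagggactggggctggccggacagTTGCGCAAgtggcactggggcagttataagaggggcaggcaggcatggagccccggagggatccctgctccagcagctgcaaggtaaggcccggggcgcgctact
Plin1 (perilipin 1), chr7:79732727-79733026, minus strand: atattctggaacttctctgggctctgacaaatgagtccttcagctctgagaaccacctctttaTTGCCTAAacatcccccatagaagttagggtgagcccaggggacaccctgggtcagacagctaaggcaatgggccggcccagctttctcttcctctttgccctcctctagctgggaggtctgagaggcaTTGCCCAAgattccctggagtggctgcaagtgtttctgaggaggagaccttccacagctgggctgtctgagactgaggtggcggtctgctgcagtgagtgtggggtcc
Adipoq (adiponectin), chr16:23146286-23146585, plus strand: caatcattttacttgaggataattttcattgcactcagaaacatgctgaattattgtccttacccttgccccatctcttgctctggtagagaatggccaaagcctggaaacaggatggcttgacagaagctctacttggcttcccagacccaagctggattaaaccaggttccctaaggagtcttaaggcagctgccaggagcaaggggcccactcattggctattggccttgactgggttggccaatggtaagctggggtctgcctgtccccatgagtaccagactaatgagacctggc
Cfd (complement factor D), chr10:79890603-79890902, plus strand: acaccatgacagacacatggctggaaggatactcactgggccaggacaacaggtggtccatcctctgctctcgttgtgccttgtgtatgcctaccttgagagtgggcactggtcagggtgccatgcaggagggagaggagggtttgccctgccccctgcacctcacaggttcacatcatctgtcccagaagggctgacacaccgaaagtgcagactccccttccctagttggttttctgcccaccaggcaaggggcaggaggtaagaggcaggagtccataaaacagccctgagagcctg

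The Lep window holds 1 C/EBP-type match, 55 bases before the start site, and the Plin1 window holds 2. No letters of either motif are in the Adipoq and Cfd windows shown. Over the 11 windows, 4 held a C/EBP-type match (1 each of Cidec, Lep, Plin1 and Pparg), against 10.8% of 32817 windows of the same length. The core motif AGGTCA was in 2 windows, both of Pparg, against 16.3% of all windows. PPARγ binds a direct repeat of this core with 1 base between the copies (AGGTCANAGGTCA), and no window held it with at most 2 mismatches, which 3.86% of all windows did. With at most 3 mismatches, 3 of the 11 windows did (Cfd, Retn and 1 of Cidec), against 24.6% of all. These matches describe letters in short windows and locate no binding.

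Among the secreted proteins of fat cells, Cfd varied most between libraries. It encodes complement factor D (adipsin), a serine protease that fat cells release and that starts the alternative complement pathway (ENSMUSG00000061780, chromosome 10, 79726687 to 79728489, in the coordinates of the table, whose build it does not name). The Cfd promoter window above, at 79890603 to 79890902 in GRCm38.p6, lies outside that range, so these coordinate sets should not be combined. Cfd had 322, 4 and 59 reads in vehicle replicates 1 to 3 and 7, 29 and 27 reads in Mn-N/C replicates 1 to 3. Scaled, this was 17.1, 0.245 and 3.93 CPM against 0.429, 1.52 and 1.52 CPM. The highest and the lowest of all 6 libraries were both vehicle tumors, and they differed 69.8-fold (exact 95% interval 27 to 258, counting error only).

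Adipoq encodes adiponectin, a hormone made by fat cells that improves insulin sensitivity (ENSMUSG00000022878, chromosome 16, 22965286 to 22976778). It had 61, 9 and 33 reads in vehicle replicates 1 to 3, or 3.24, 0.551 and 2.20 CPM. The Mn-N/C libraries had 13, 21 and 14 reads, or 0.797, 1.10 and 0.787 CPM. Vehicle replicates 1 and 3 were above, and vehicle replicate 2 below, every Mn-N/C library. Lep encodes leptin, which signals the size of fat stores to the brain (ENSMUSG00000059201, chromosome 6, 29060219 to 29073876). Its levels were 2.97, 1.04 and 1.67 CPM in vehicle and 1.16, 1.21 and 0.394 CPM in Mn-N/C replicates 1 to 3, so that vehicle replicate 2 lay within the Mn-N/C range. Retn encodes resistin, a hormone that fat cells secrete in mice (ENSMUSG00000012705, chromosome 8, 3705770 to 3710110). It had 11, 1 and 2 reads in vehicle and 1, 3 and 2 reads in Mn-N/C replicates 1 to 3, too few to be tested. The exact Poisson interval of the 11 reads is 5.49 to 19.7 and that of the 3 reads in Mn-N/C replicate 2 is 0.619 to 8.77, so these overlap within counting error.

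The genes of the lipid droplet had the same high pair of libraries. Plin1 encodes perilipin 1, the fat cell coat protein that controls access of lipases to the droplet (ENSMUSG00000030546, chromosome 7, 79369966 to 79382651). It had 60, 3 and 21 reads in vehicle and 7, 15 and 11 reads in Mn-N/C replicates 1 to 3, which is 3.19, 0.184 and 1.40 CPM against 0.429, 0.787 and 0.618 CPM. Vehicle replicate 1 exceeded vehicle replicate 2 by 17.3-fold (exact 95% interval 5.66 to 86.5). Plin4 encodes perilipin 4, which coats nascent droplets and is also made in muscle (ENSMUSG00000002831, chromosome 17, 56407591 to 56416803). Its levels were 16.3, 3.55 and 9.39 CPM in vehicle and 3.80, 3.41 and 3.77 CPM in Mn-N/C replicates 1 to 3, so the Mn-N/C tumors were almost equal and vehicle replicate 2 lay among them. Cidec encodes a droplet protein that drives fusion of small droplets into the large droplet of white fat (ENSMUSG00000030278, chromosome 6, 113401595 to 113412721). It was at 4.09, 1.16 and 1.93 CPM in vehicle and 0.920, 1.16 and 1.01 CPM in Mn-N/C replicates 1 to 3. Cidec was the only member whose groups did not overlap, and there by a narrow margin, with 19 reads in vehicle replicate 2 and 22 in the deeper library of Mn-N/C replicate 2.

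Fabp4 and Lpl had the most reads and the smallest differences among the 9 tested members other than Pparg. Fabp4 encodes the fatty acid carrier aP2 (ENSMUSG00000062515, chromosome 3, 10269148 to 10273636). It was at 33.0, 14.6 and 26.2 CPM in vehicle and 13.4, 19.3 and 13.8 CPM in Mn-N/C replicates 1 to 3, with vehicle replicate 2 inside the Mn-N/C range. Lpl encodes lipoprotein lipase, which frees fatty acids from circulating triglyceride (ENSMUSG00000015568, chromosome 8, 69333143 to 69360100). It was at 18.1, 8.02 and 21.5 CPM in vehicle and 11.3, 12.0 and 6.86 CPM in Mn-N/C replicates 1 to 3, and was the only member with its highest level in vehicle replicate 3. Together these genes made up 51.0% of the summed CPM of all 10 members in vehicle replicate 1 and 68.8% to 74.9% in the other 5 libraries.

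Pparg, the transcription factor of the group, differed least between the groups. It encodes PPARγ (ENSMUSG00000000440, chromosome 6, 115337912 to 115467360) and had 31, 14 and 15 reads in vehicle and 13, 22 and 15 reads in Mn-N/C replicates 1 to 3. Scaled CPM were 1.65, 0.857 and 0.999 for vehicle, and 0.797, 1.16 and 0.843 for Mn-N/C. Only vehicle replicate 1 lay above all Mn-N/C libraries.

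Per length, Cfd and Fabp4 were the most abundant members by group mean, but Cfd was above Fabp4 only in vehicle replicate 1. Cfd was at 18.9, 0.265 and 4.27 FPKM in vehicle and 0.456, 1.66 and 1.64 FPKM in Mn-N/C replicates 1 to 3. Fabp4 was at 7.51, 3.25 and 5.86 FPKM in vehicle and 2.93, 4.31 and 3.06 FPKM in Mn-N/C replicates 1 to 3. FPKM values, which the authors made by dividing counts by gene length and library total, averaged 7.82 ± 9.83 for Cfd and 5.54 ± 2.15 for Fabp4 in vehicle tumors (SD, n = 3). Plin4, Lpl, Adipoq and Cidec followed at 1.55 ± 1.03, 1.53 ± 0.678, 1.46 ± 1.00 and 1.31 ± 0.844 FPKM. Lep, Pparg, Plin1 and Retn were at 0.571 ± 0.305, 0.399 ± 0.149, 0.347 ± 0.333 and 0.167 ± 0.184 FPKM. In Mn-N/C tumors Fabp4 led at 3.43 ± 0.762 FPKM, before Cfd at 1.25 ± 0.688 and Lpl at 0.954 ± 0.267. In vehicle tumors every pair of neighbours in this order except Fabp4 and Plin4 differed by less than the larger of their SDs. In Mn-N/C tumors Fabp4 and Cfd differed by more than both of their SDs.

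Across treatments, all 9 tested members had a lower mean in Mn-N/C than in vehicle tumors, and none was called. Log2 fold changes (Mn-N/C over vehicle) and standard errors come from edgeR's quasi-likelihood test on the counts, with p-values adjusted by the Benjamini-Hochberg method over all 12800 genes tested. The fold change was largest for Cfd, at -2.61 (standard error 1.11, adjusted p = 0.229 from edgeR), with 7.09 ± 8.86 CPM in vehicle and 1.16 ± 0.630 CPM in Mn-N/C tumors. It was -1.41 (0.466) for Plin4, with the smallest adjusted p of the members at 0.184 from edgeR. Plin1 was at -1.37 (0.80), Cidec at -1.22 (0.484), Adipoq at -1.15 (0.588) and Lep at -1.04 (0.542). Fabp4 and Lpl were at -0.67 (0.282) and -0.66 (0.356), and Pparg at -0.33 (0.407). The adjusted p of these last 7 members was 0.213 to 0.683 from edgeR. The median over the 9 genes was -1.15, against 0.00 over all genes tested.

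At an adjusted p under 0.05, edgeR called 0 of the 9 members and 0 of all 12800 genes (0%). At an unadjusted p under 0.05, 4 members (Plin4, Cidec, Cfd and Fabp4) were lower in Mn-N/C tumors, where 11.1% of all genes tested were, and 0 were higher, where 9.82% of all were. DESeq2 called 753 of the 9324 genes to which it gave an adjusted p, and 0 of them were members. Of the members, only Fabp4 (0.106) and Lpl (0.209) had an adjusted p from DESeq2. In DESeq2 3 of the 9 were lower at an unadjusted p under 0.05, where 11.7% of all genes were. Every vehicle library lay above every Mn-N/C library for 1 of the 9 tested members (Cidec) and for 12.1% of all genes.

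For every tested member except Lpl the fold change was nearest to 0 when vehicle replicate 1 was left out. Without that library the median log2 fold change of the 9 members was -0.54, and the value was -0.82 for Cfd, -0.33 for Plin1 and 0.02 for Pparg. In that fit 0 members were lower at an unadjusted p under 0.05, where 8.06% of all genes were. Without vehicle replicate 2, the low library of its group, the median was -1.53 and edgeR called Plin4 (-1.80, adjusted p = 0.0495) and Fabp4 (-0.92, adjusted p = 0.0497) lower, among 583 genes called of 13060. In that fit 7 members were lower at an unadjusted p under 0.05, where 14.3% of all genes were, a share that had risen from 11.1% with all libraries. The count of such members was 1 without Mn-N/C replicate 1 or without Mn-N/C replicate 3, where 5.77% and 9.79% of all genes were lower. Without vehicle replicate 3 the value of Lpl was -0.38, and without Mn-N/C replicate 3 those of Lpl and Lep were -0.44 and -0.68.

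**Figure D2:**
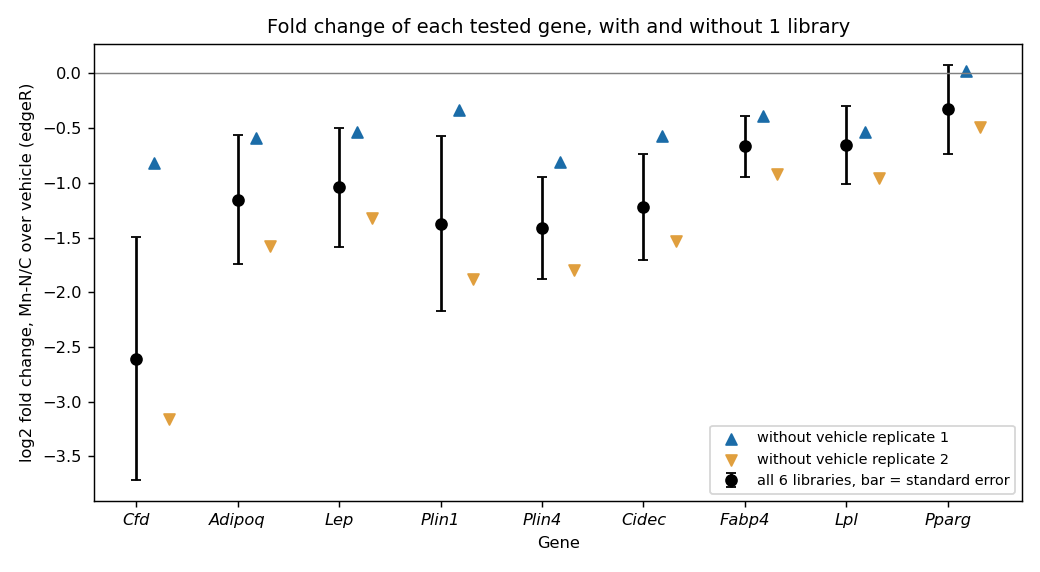
Log2 fold change of each tested adipocyte gene, Mn-N/C over vehicle, from edgeR (black, bar = standard error, n = 3 per group) and again without vehicle replicate 1 (blue) or vehicle replicate 2 (orange). Values move toward 0 without vehicle replicate 1, to -0.82 for Cfd, and away from 0 without vehicle replicate 2, to -3.16 for Cfd.

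The vehicle tumors differed among themselves far more in these genes than the Mn-N/C tumors did. The SD of log2 CPM within the vehicle group had a median of 0.86 over the 9 tested members and reached 2.82 for Cfd, 1.77 for Plin1 and 1.22 for Adipoq. Within the Mn-N/C group the median was 0.29, and Plin4 had an SD of 0.08. The SD was larger in vehicle for 8 of the 9 members, all but Lep. Among the 4393 genes with a mean level between those of the lowest and the highest tested member (1.05 to 20.1 CPM), the median SD was 0.26 in vehicle and 0.24 in Mn-N/C, and 51.4% had the larger SD in vehicle. Vehicle replicates 1 and 3 were the highest pair of the 6 libraries for 8 of the 9 tested members, all but Pparg, and for 19.4% of all genes tested. Vehicle replicate 1 was the highest library for 8 of the 9, all but Lpl, and for 10.5% of all.

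The members did not keep a fixed ratio between the high libraries. Vehicle replicate 1 exceeded vehicle replicate 3 by 4.35-fold for Cfd (exact 95% interval 3.29 to 5.85) but by 1.26-fold for Fabp4 (1.11 to 1.43) and 1.73-fold for Plin4 (1.41 to 2.13). Plin1 and Cidec had ratios of 2.28 (1.37 to 3.94) and 2.12 (1.36 to 3.37), Lep of 1.79 (1.10 to 2.99) and Adipoq of 1.47 (0.95 to 2.32). Lpl went the other way, at 0.842 (0.721 to 0.983). Pparg was at 1.65 (0.863 to 3.28) and Retn at 4.39 (0.957 to 40.7). The interval of Cfd lies above those of Fabp4, Plin4, Lep, Adipoq, Lpl and, narrowly, Pparg, and overlaps those of Plin1, Cidec and Retn. The intervals cover counting error only and compare these libraries, not conditions.

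**Figure D3:**
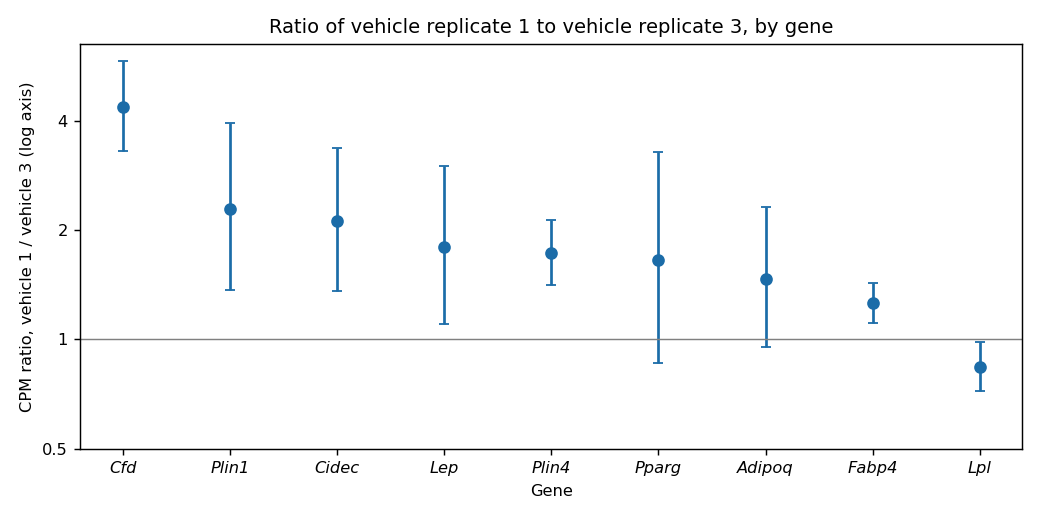
Ratio of the CPM in vehicle replicate 1 to that in vehicle replicate 3 (log axis) for each tested adipocyte gene; bars are exact 95% binomial intervals for counting error. Cfd stands at 4.35, most other genes between 1 and 3, and Lpl at 0.842, below 1.

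Of the other fat and lipid genes, 7 lists written from general knowledge held 106 tested genes that are no members. In edgeR 0 were called, 9 were lower and 10 higher at an unadjusted p under 0.05, and their median log2 fold change was 0.01. Over all genes tested, 11.1% were lower and 9.82% higher at that p, the shares to set beside each list count below. The closest to fat cell identity was the list of white fat secreted and surface genes, where 7 of 7 tested genes had a lower mean, with a median of -0.24 and 0 at an unadjusted p under 0.05. Its 3 genes of smallest p were Apln, the hormone apelin, at 20.7, 24.5 and 21.8 CPM in vehicle and 19.5, 17.6 and 19.5 CPM in Mn-N/C replicates 1 to 3 (log2 fold change -0.24), Cdo1, a cysteine dioxygenase (-0.63), and Sncg, synuclein gamma (-0.75). Sncg followed the members' pattern, at 2.18, 0.674 and 1.20 CPM in vehicle and 0.797, 1.16 and 0.450 CPM in Mn-N/C replicates 1 to 3. Apln was highest in vehicle replicate 2.

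Of 16 tested genes of fatty acid uptake and of partners of lipoprotein lipase, 3 were lower and 1 was higher at an unadjusted p under 0.05, with a median of 0.02. Gpihbp1, which anchors lipoprotein lipase to capillary walls, was at 9.51, 8.39 and 10.7 CPM in vehicle and 5.33, 6.83 and 6.97 CPM in Mn-N/C replicates 1 to 3, with no overlap. Its log2 fold change was -0.58 (standard error 0.184, adjusted p = 0.182 from edgeR). Here vehicle replicate 2 was above the Mn-N/C tumors, unlike in Lpl itself. Sel1l, which is needed for folding of lipoprotein lipase in the endoplasmic reticulum, was at -0.23 (0.0699). Lrp1, an endocytic receptor and the most abundant gene of the list, was at 0.03 (0.0897). Outside the naming rule, and picked after its values were seen, Cd36, the fatty acid transporter, was at 13.3, 4.90 and 14.0 CPM in vehicle and 6.01, 7.25 and 5.23 CPM in Mn-N/C replicates 1 to 3 (log2 fold change -0.80, adjusted p = 0.252 from edgeR), with vehicle replicates 1 and 3 highest and vehicle replicate 2 lowest.

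Genes of fatty acid and triglyceride synthesis, which many cell types and tumor cells use, mostly had the opposite direction. Of 27 tested, 20 had a higher mean in Mn-N/C tumors, and the median was 0.10, against 0.00 over all genes tested. At an unadjusted p under 0.05, 7 were higher, where 9.82% of all genes were, and 0 were lower, where 11.1% were. Fasn, fatty acid synthase, was at 274, 375 and 242 CPM in vehicle and 444, 409 and 370 CPM in Mn-N/C replicates 1 to 3. Its log2 fold change was 0.46 (standard error 0.155), and those of Acly, which makes cytosolic acetyl-CoA, and Acaca, acetyl-CoA carboxylase, were 0.33 (0.112) and 0.29 (0.0935). The adjusted p of these 3 genes was 0.182 to 0.187 from edgeR. Scd2, a desaturase and the most abundant gene of the list, was at 0.23 (0.113). Levels of these 4 genes were lowest in vehicle replicates 1 and 3, where the adipocyte members were highest.

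Other droplet and lipolysis genes were split, with 8 lower and 9 higher means of 17 tested and a median of 0.01. Cavin1, a caveolar coat protein abundant in fat cells and in other stroma, was at 0.29 (standard error 0.0939), Rab18, a droplet GTPase, at -0.22 (0.0808) and Cav1, caveolin 1, at -0.27 (0.131). Plin2, the droplet coat of most cell types and named outside the rule, was at 159, 162 and 162 CPM in vehicle and 163, 135 and 160 CPM in Mn-N/C replicates 1 to 3, without the high pair of libraries that its fat cell relative Plin1 had. Of 21 tested transcription factors and coactivators linked to fat cells, 3 were lower and 1 was higher at an unadjusted p under 0.05, with a median of 0.00. Klf4, a factor of many cell types, was at -0.48 (0.109), Ncoa1, a nuclear receptor coactivator, at -0.36 (0.123) and Ppard, a relative of Pparg, at 0.31 (0.112).

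Receptors of fat hormones and the insulin pathway had 2 genes lower and 0 higher of 16 tested at an unadjusted p under 0.05, with a median of -0.01. Cdh13, a T-cadherin that binds adiponectin, was at 173, 163 and 179 CPM in vehicle and 147, 142 and 148 CPM in Mn-N/C replicates 1 to 3 (log2 fold change -0.24, standard error 0.0677). Tlr4, a receptor of bacterial lipopolysaccharide, was at -0.57 (0.169), Pde3b, the phosphodiesterase through which insulin curbs lipolysis, at -0.55 (0.270), and Cap1, which binds resistin in human cells, at 0.11 (0.0655). Brown fat genes were scarce. Of 12, 3 could be tested, namely Cox7a1 (0.78), Prdm16 (0.32) and Pank1 (-0.06), with 0 at an unadjusted p under 0.05. Ucp1, the uncoupling protein that defines brown fat, had 0 or 1 read in each library.

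Markers of other cells in the pieces moved partly with the adipocyte genes. As the mean deviation of a list from its average over the 6 libraries on the log2 CPM scale, the 9 tested members stood at 1.41, -0.80 and 0.62 in vehicle and -0.56, -0.12 and -0.54 in the Mn-N/C libraries 1 to 3. Of 12 endothelial genes, all tested, the deviations were 0.37, -0.30 and 0.25 in vehicle and -0.42, 0.31 and -0.20 in the Mn-N/C libraries 1 to 3, and of 14 genes of fat stroma and preadipocytes they were 0.37, -0.27, 0.15, -0.35, 0.51 and -0.42 in the same order. Both lists were high in vehicle replicates 1 and 3, and also in Mn-N/C replicate 2, where the adipocyte genes stood at -0.12. The endothelial genes Emcn and Cldn5 were at -0.71 (standard error 0.262) and -0.69 (0.300) in log2 fold change, and Dcn, the matrix proteoglycan decorin, -0.51 (0.173). At an unadjusted p under 0.05, these 2 endothelial genes and 2 stromal genes (Dcn and Fap, a fibroblast protease, at -1.04) were lower and 0 were higher. Of the same lists, Sox17 and Gdf10 were at -0.60 (0.531) and 1.39 (1.06), and the most abundant genes, Flt1 and Cd34, at 0.00 and -0.02.

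Skeletal muscle genes did not share the full pattern. The summed level of 16 muscle genes was 26.0, 158 and 312 CPM in vehicle and 46.1, 914 and 17.4 CPM in Mn-N/C replicates 1 to 3. Vehicle replicate 1, with the most adipocyte RNA, thus had little muscle RNA. Mn-N/C replicate 2, with the most muscle RNA, had an intermediate adipocyte level, the highest of its group. Vehicle replicate 3 was high in both. Acta1, skeletal muscle actin, had 105, 1002 and 1555 reads in vehicle and 271, 6760 and 64 reads in Mn-N/C replicates 1 to 3. Among the muscle genes, 13 could be tested and 12 had a higher mean in Mn-N/C, with a median of 0.91 and 0 at an unadjusted p under 0.05, and Mylpf, Ckm and Myl1 had the smallest p (log2 fold changes 1.28, 1.42 and 1.20). Of 13 tested macrophage genes 1, Gpnmb (-0.71, standard error 0.198), was lower at an unadjusted p under 0.05, and Lyz2 and Cd68 were at 0.15 and 0.22. On the scale of mean deviation, the macrophage genes stood at 0.27, -0.02 and -0.19 in vehicle and -0.19, 0.15 and -0.03 in the Mn-N/C libraries 1 to 3, and 5 of the 13 were highest in vehicle replicate 1, where the adipocyte genes peaked. In vehicle replicate 3, the other high library of the adipocyte genes, the macrophage genes were low by this mean. Single genes differed: vehicle replicates 1 and 3 were the highest pair for 4 of the 13, and for 19.4% of all genes tested. Mertk, named outside the rule after its values were seen, had r = 0.956 with the members' mean deviation. It was at 18.6, 14.0 and 17.5 CPM in vehicle and 15.5, 16.0 and 15.6 CPM in Mn-N/C replicates 1 to 3. The summed level of the 14 macrophage genes, of which Lyz2 alone gave 580 to 766 CPM, ran from 1078 to 1280 CPM and was highest in Mn-N/C replicate 3. The part of these cells in the values of Fabp4, Lpl and Plin4 was not tested.

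**Figure D4:**
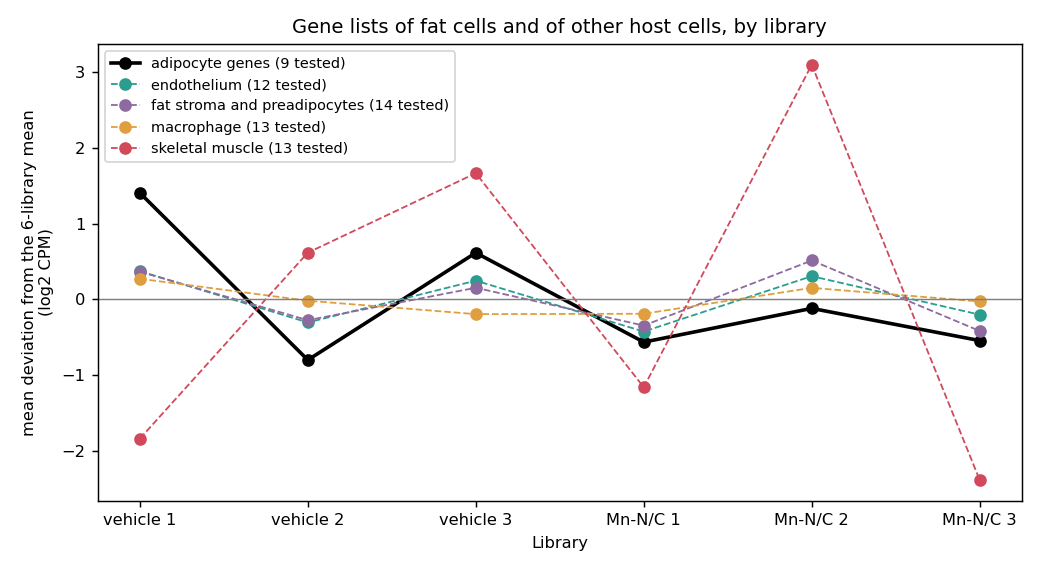
Mean deviation from the 6-library average (log2 CPM) of the 9 tested adipocyte genes and of 4 lists of other host cells in each library; lines join the values of a list. Adipocyte genes peak in vehicle replicates 1 and 3 (1.41 and 0.62), whereas skeletal muscle genes peak in Mn-N/C replicate 2 and are also high in vehicle replicate 3 (1.67).

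Few genes followed the adipocyte genes closely over the libraries. Over the 6 libraries, 24 of 12543 named non-member genes had a Pearson r over 0.95 with the members' mean deviation, given as a description since all genes share the same libraries. The 10 highest were Stx7 (r = 0.998), Mrps18c, Mtf1, Cyth1, Atp9a, Itih5, Xbp1, Il6ra, Tsc1 and Mamstr (r = 0.966). Itih5, a hyaluronan-binding protein, came nearest in size as well, at 4.94, 1.10 and 2.60 CPM in vehicle and 1.41, 2.21 and 1.46 CPM in Mn-N/C replicates 1 to 3. Atp9a, a lipid flippase, was at 7.54, 2.69 and 5.20 CPM in vehicle and 2.94, 4.04 and 3.49 CPM in Mn-N/C replicates 1 to 3. Stx7, a syntaxin of endosomes, lay between 44.3 and 51.1 CPM in all 6 libraries, a much smaller spread than that of the members. Among the members, r with their own mean was 0.991 for Adipoq and 0.805 for Lep, the lowest.

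The libraries held 14988588 to 18961134 counts, so that 3 reads, the most that a count of 0 allows, correspond to 0.158 to 0.200 CPM as counting error only. Replicates of a group never agreed within sampling noise, their chi-square over genes divided by its degrees of freedom being 6.56 to 27. Counts of long genes ran higher than average in vehicle replicates 1 and 3 (Spearman's rho of deviation with gene length 0.17 and 0.24, across genes), near average in vehicle replicate 2 (-0.03), and lower in Mn-N/C tumors (-0.17 to -0.20), the same pair of vehicle libraries as for the adipocyte genes. Cfd, with 922 bases the shortest member, had the largest difference, most of it from vehicle replicate 1. In a fit added after the data were seen, each library's length trend was removed. There the members' median log2 fold change was -1.24, against -1.15 without this step. Cfd moved from -2.61 to -2.70, and Lpl, with 10478 bases, from -0.66 to -0.49. The part of gene length in the members' differences was not tested. Of colon epithelial markers, Epcam had 2 to 18 reads, Krt8 0 to 9 and Cdx2 0 in every library, so the labelled colon origin is not visible in these genes, while Cdh1 had 271 to 753 reads.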

How the data were processed

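RNA from 3 vehicle and 3 Mn-N/C MC38 tumors was sequenced by a company. The authors deposited whole-number read counts per gene, not normalized, and FPKM values made from the same counts, 1 column per library. HISAT2 2.0 and mm10 are listed in the submitters' processing notes, their roles unstated. For the counting program, annotation and strand setting nothing is stated, so reads of overlapping antisense genes could not be told apart. The gene lengths in the table were used as deposited.

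The main test was edgeR 4.0.16 under R 4.3.3, with filterByExpr at its defaults, TMM factors, glmQLFit and glmQLFTest and group as the only term, in which 12800 of 21958 genes were kept. Retn was dropped by that filter. Standard errors are the log2 fold change divided by the square root of the F statistic. Log2 CPM used a prior count of 2. Exact intervals (Clopper-Pearson for ratios of counts, Poisson for single counts, 95%) came from scipy 1.17.1.

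The members and the gene lists were chosen with earlier results of these data known. Named genes are all members, up to 3 genes of smallest p and the most abundant gene of each list, and the 10 genes most correlated with the members' mean deviation. Exceptions are marked, and 2 genes that the rule names are not reported here. Alternatives were DESeq2 1.42.0 on the same genes, RLE scaling, no filter, limma 3.58.1 on log2(FPKM + 1) or log2(FPKM + 0.1) for members and for genes reaching 1 FPKM in 3 or more libraries, a replicate block, leaving out each library, and, added after the data were seen, a loess trend on gene length (span 0.5) removed. RefSeq promoter windows on chromosome 18 were not used. No other experiment of the study was analysed here.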

Additional observations from a re-analysis of the deposited data

How the results depend on the processing

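Of the 9 tested adipocyte genes, 8 had a lower mean in Mn-N/C tumors under all 13 alternatives. Pparg turned to 0.02 without vehicle replicate 1. In edgeR, limma and DESeq2 no alternative called a member except the fit without vehicle replicate 2, so the count of called members was 0 to 2 over the 6 fits without 1 library, against 0 with all. Over those fits the log2 fold change ranged from -3.16 to -0.82 for Cfd, -1.88 to -0.33 for Plin1, -1.80 to -0.81 for Plin4, -1.58 to -0.59 for Adipoq, -1.53 to -0.57 for Cidec, -1.32 to -0.54 for Lep, -0.96 to -0.38 for Lpl, -0.92 to -0.38 for Fabp4 and -0.51 to 0.02 for Pparg. The adjusted p ranged from 0.0495 to 0.989 over members and fits. Over all genes, 0 were called by edgeR with all libraries, 753 by DESeq2, and 0 to 583 without 1 library. In the lipid and other cell lists edgeR called 0 of 177 with all libraries. DESeq2 called 8 of the 114 with an adjusted p, beside 753 of 9324 over all genes. Among the 8 were Klf4, Dcn, Gpnmb, Cdh13 and Tlr4 lower, and Cavin1 and Fasn higher. Without 1 library 0 to 5 were called, the 5 being of 183 without vehicle replicate 2, beside 583 of 13060 over all genes. The causes were not tested. The number of members lower at an unadjusted p under 0.05, 4 of 9 in edgeR with all libraries, was 0 to 7 without 1 library and 0 of 10 in limma on both FPKM scales. The share of all genes lower at that p was 11.1% with all libraries and 5.63% to 14.3% without 1 library. In limma it was 12.5% on the log2(FPKM + 1) scale and 12.6% on the log2(FPKM + 0.1) scale. The members' median was -0.42 on the log2(FPKM + 1) scale and -0.72 on the log2(FPKM + 0.1) scale, both of which understate low genes.

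Deviations of same-numbered libraries correlated at -0.153, -0.011 and 0.124, and those of differently numbered libraries at -0.108 to 0.13. Deviations within a group sum to 0 by construction, so these values cannot decide whether the replicate numbers pair the libraries. With the replicate block, 0 genes were called, the members' median was -0.93, 1 member had an unadjusted p under 0.05 and Cfd moved to -1.57. Depth limits Retn (1 to 11 reads), Plin1 and Cfd most, since each had under 5 reads in vehicle replicate 2.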

Other observations

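By mean deviation of the tested genes, neutrophil, skin and epithelial markers shared neither the highest nor the lowest library of the adipocyte genes. Skin markers were highest in vehicle replicate 2 (0.20), where the adipocyte genes were lowest. Nerve markers partly shared the order of the adipocyte genes. Of 6 tested neutrophil genes, among them Cxcr2 (log2 fold change 0.77), Retnlg (0.92), a relative of Retn, S100a8 (0.53) and Csf3r (-0.01), the mean deviation was highest in Mn-N/C replicate 2, at 0.89, and lowest in Mn-N/C replicate 1, at -0.73. The 14 keratinocyte and sebaceous genes summed to 143 to 211 CPM, with the lowest value in vehicle replicate 3, and Krt14, Krt10 and Far2 were at 0.24, -0.31 and -0.39. Of the 2 tested epithelial genes, Cdh1 was at 0.33 and Lgals4 at -0.50. Epcam, too low to be tested, had 18, 2 and 3 reads in vehicle and 3, 8 and 2 reads in Mn-N/C replicates 1 to 3. It peaked in vehicle replicate 1 like the adipocyte genes, as did Krt8, Krt18, Krt19 and Vil1, which were also too scarce to be tested. Vil1 had 10 reads in vehicle replicate 1 and 9 in Mn-N/C replicate 2, so peaks at such counts may lie within counting error. Krt20 peaked in vehicle replicate 3 and Cdh17 in Mn-N/C replicate 2. The deviation of 6 tested Schwann cell and nerve genes was 0.34, -0.31 and 0.30 in vehicle and -0.08, 0.08 and -0.33 in the Mn-N/C libraries 1 to 3, so it was highest in vehicle replicates 1 and 3 like that of the adipocyte genes. Of these genes, Cnp, Prx and Pmp22 were at 0.19, -0.18 and -0.10. In these 4 lists 0 genes had an unadjusted p under 0.05 in edgeR.

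Outside the naming rule, Trarg1, which regulates glucose transport in fat cells, had 61, 11 and 22 reads in vehicle and 19, 24 and 28 reads in Mn-N/C replicates 1 to 3. It shared the peak in vehicle replicate 1 with the adipocyte genes, but vehicle replicate 3 was within the Mn-N/C range. Marco, Krt15 and Apoc2 had 0 reads in every library.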
